A study of Homo sapiens with 9 samples.

Results

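The genes of sphingosine-1-phosphate (S1P) transport and signalling described here number 10, out of 27548 gene rows in an RNA sequencing study of MDA-MB-231 cells. They are the kinases SPHK1 and SPHK2, the exporter SPNS2, the lyase SGPL1, the phosphatases SGPP1 and PLPP3, and the receptors S1PR1, S1PR2, S1PR3 and S1PR5. All 10 had a row. SPNS2 was picked because it was higher after an siRNA against TLX in these same libraries, and the others were added as its pathway. For a symbol on several rows the row with the highest mean over the 9 libraries was kept, which applied to SGPP1 with 2 rows of equal values.

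MDA-MB-231 is an established line of human triple-negative breast cancer. The study asked what the orphan nuclear receptor TLX, encoded by NR2E1, does in such cells. There were 3 groups of 3 libraries: cells that overexpress TLX and received an siRNA directed at it (TLX+siTLX, libraries S7 to S9), the same cells with a negative control siRNA (TLX+siCTL, libraries S4 to S6), and control cells with that control siRNA (CTL+siCTL, libraries S1 to S3). Every group was transfected for 48 h with one of the 2 kinds of siRNA, and no group was left without one. The sources used here do not give how TLX was overexpressed, whether the cells were a clone or a pool, or the siRNA sequences. Titles of the control samples include PC3, a term left unexplained in the labels, and any difference of the control cells besides TLX cannot be told apart from it. The labels do not say that replicates were separate cultures, so the p-values reflect variation among these 9 samples that may be purely technical.

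S1P is a lipid messenger made inside the cell from sphingosine, a product of ceramide breakdown. Sphingosine kinases phosphorylate sphingosine to S1P, and SPNS2 and other transporters carry S1P out of the cell. Outside it binds a family of G protein-coupled receptors whose members couple to different G proteins and so act on migration, survival and the actin cytoskeleton. S1P is removed either by dephosphorylation back to sphingosine or by the lyase, which cleaves it for good. In breast cancer cells the pathway is best known for SPHK1 and for receptor-driven movement.

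TLX is a DNA-binding receptor, so the sequence in front of a gene's start is shown for S1PR3, S1PR2 and PLPP3. They are 3 of the 4 genes other than SPNS2 that differed between TLX+siCTL and CTL+siCTL, and SPHK1 is not shown. Each sequence shown is the 250 bases before the RefSeq start on GRCh38.p14, read on the gene's strand. These are chr9:88990613-88990862 (+) for S1PR3, of whose 2 RefSeq starts the first is shown, chr19:10231332-10231581 (-) for S1PR2 and chr1:56579564-56579813 (-) for PLPP3. The PLPP3 window starts inside the longer GENCODE gene, and 21 of its bases lie in GENCODE exons of PLPP3.
S1PR3: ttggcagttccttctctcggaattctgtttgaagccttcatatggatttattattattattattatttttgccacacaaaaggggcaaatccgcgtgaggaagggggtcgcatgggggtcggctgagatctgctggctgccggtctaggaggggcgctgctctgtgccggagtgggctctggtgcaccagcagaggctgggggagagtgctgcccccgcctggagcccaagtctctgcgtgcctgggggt
S1PR2: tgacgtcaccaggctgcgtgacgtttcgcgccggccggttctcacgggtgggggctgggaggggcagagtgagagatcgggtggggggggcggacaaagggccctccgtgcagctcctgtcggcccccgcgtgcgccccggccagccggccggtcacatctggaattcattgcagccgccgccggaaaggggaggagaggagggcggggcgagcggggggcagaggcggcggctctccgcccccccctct
PLPP3: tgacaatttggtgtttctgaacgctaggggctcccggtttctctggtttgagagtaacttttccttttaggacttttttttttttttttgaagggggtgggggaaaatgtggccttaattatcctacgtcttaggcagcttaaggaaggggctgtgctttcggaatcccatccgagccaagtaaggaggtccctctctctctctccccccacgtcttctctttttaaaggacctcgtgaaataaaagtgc
Capitals would mark AAGTCA, the core of the site that TLX is known to bind, on either strand (TGACTT on the other), and none of these 3 windows holds it. The RefSeq promoter entries covered 8 of the 10 genes, with 13 windows in all. SPNS2 and SGPP1 had no entry, so no sequence of theirs was searched. AAGTCA was found in 1 of the 13, that of S1PR1. It was present in 3812 of all 35116 windows of that kind (10.9%). The S1PR1 match starts 117 bases before the RefSeq start, on the strand opposite to the gene, and is shown in 30 bases at chr1:101236890-101236919 (+). Of the S1PR1 window 154 bases, the match included, lie in exons of GENCODE transcripts with an earlier start. S1PR1 did not pass the test in any comparison.
S1PR1: cgcggcgctgggTGACTTcgcgtagcaggc
Such a match describes the letters of a window and does not show a site in use.

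NR2E1 itself was checked first. Its log2 CPM (read counts scaled to library size, on a log2 scale) was -2.61, -3.40 and -1.77 in TLX+siTLX, 0.28, -0.84 and 0.23 in TLX+siCTL, and -4.59, -4.28 and -4.50 in CTL+siCTL, with no overlap between groups. These values rest on few reads, which were rebuilt from the deposited values as estimates. They numbered 5.35 to 23.4 a library in TLX+siTLX, 42.0 to 109 in TLX+siCTL and 1.35 to 2.02 in CTL+siCTL. TLX+siTLX differed from TLX+siCTL by a log2 fold change of -2.48 ± 0.47 (SE, adjusted p = 0.00494) and from CTL+siCTL by 1.86 ± 0.47 (adjusted p = 0.0134). The second of these calls was lost when S1 was left out (adjusted p = 0.0549) and with log2(CPM + 1) values (adjusted p = 0.387). TLX+siCTL differed from CTL+siCTL by 4.35 ± 0.47 (adjusted p = 0.000133). Differences after the siRNA are those of TLX+siTLX from TLX+siCTL. All tests here are limma's, fitted across all 27548 rows with Benjamini-Hochberg adjustment, and a call is an adjusted p under 0.05.

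Effective library sizes were 73.8 to 91.8 M reads, and all replicate pairs differed by far more than counting noise. S9 stood furthest from its group, with a chi-square per row of 59.8 to S7 and 35.0 to S8, compared with 25.2 between S7 and S8. Of 7 genes listed beforehand as detected in MDA-MB-231, 6 averaged 1 log2 CPM or more, and SPARC was under -3. But GATA3, KRT19 and EPCAM, 3 of 6 genes listed as low there, were detected too. The hormone receptors ESR1 and PGR were low. Of 8 endothelial genes CDH5, CLDN5, TEK and TIE1 were under -3 log2 CPM. The summed CPM of that list was 42.7 to 52.6 in TLX+siTLX, 23.6 to 28.5 in TLX+siCTL and 84.9 to 86.6 in CTL+siCTL, mostly ESAM. The 5 blood genes with a row summed to 1.75 to 2.95, 1.30 to 1.52 and 1.50 to 1.59 CPM in the same group order. Of 6 prostate luminal genes KLK3, KLK2 and HOXB13 were under -3. The part of other cells in the results was not tested, and in bulk RNA fewer cells and less RNA per cell cannot be told apart.

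SPHK1, the sphingosine kinase of the cytoplasm and plasma membrane, fell in TLX+siCTL relative to CTL+siCTL and was lower still in TLX+siTLX (ENSG00000176170, GRCh38 chr17:76376584-76387860). Its log2 CPM was 3.52, 3.36 and 3.57 in TLX+siTLX, 3.82, 3.91 and 3.75 in TLX+siCTL, and 4.33, 4.29 and 4.10 in CTL+siCTL. The 3 groups did not overlap, and the order was TLX+siTLX, TLX+siCTL, CTL+siCTL from low to high. SPHK1 was 1.27-fold lower in TLX+siTLX than in TLX+siCTL (log2 fold change -0.34 ± 0.08, SE, adjusted p = 0.0154). This call was lost without S4 (adjusted p = 0.0557), without S5 (0.0681) and without S8 (0.0575). Relative to CTL+siCTL it was 1.69-fold lower in TLX+siTLX (-0.76 ± 0.08, adjusted p = 9.73e-05) and 1.33-fold lower in TLX+siCTL (-0.41 ± 0.08, adjusted p = 0.00435). TLX+siTLX was thus farther from CTL+siCTL than TLX+siCTL was. Of the 4416 exon bases of SPHK1, 59 are covered by PRPSAP1 on the opposite strand.

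SPHK2, the kinase found mainly in the nucleus and inner membranes, did not pass the test in any comparison. It stood at 3.70, 4.17 and 4.24 log2 CPM in TLX+siTLX, 3.80, 3.66 and 3.88 in TLX+siCTL, and 3.75, 3.66 and 3.96 in CTL+siCTL. S7 lay among the libraries of the other groups while S8 and S9 lay above all of them. The log2 fold change was 0.25 ± 0.14 against TLX+siCTL (adjusted p = 0.277) and 0.24 ± 0.14 against CTL+siCTL (adjusted p = 0.251), and without S7 both passed the threshold (0.42, adjusted p = 0.0282, and 0.41, adjusted p = 0.0212). Exons of RPL18 and DBP on the opposite strand cover 246 and 661 of the 6009 exon bases of SPHK2, and the sources used here do not give whether the authors' counting used strand.

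Levels of the kinases were compared per kilobase of the principal transcript, since levels of different genes compare only per length. SPHK1 stood at 5.24 ± 0.39 CPM per kb in TLX+siTLX, 6.64 ± 0.37 in TLX+siCTL and 8.86 ± 0.73 in CTL+siCTL (SD, n = 3). SPHK2, at the shorter of its 2 principal transcripts, stood at 5.79 ± 1.11, 4.81 ± 0.37 and 4.84 ± 0.53 CPM per kb in the same groups. In TLX+siTLX the libraries of the kinases overlapped, whereas in TLX+siCTL and CTL+siCTL SPHK1 was the higher.

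SPNS2 carries S1P out of the cell and in mice supplies S1P to lymph (ENSG00000183018, chr17:4498838-4539035). The values of SPNS2 are a description with no test, since it was picked on them, and its other comparisons share libraries with that one. It stood at 3.51, 3.60 and 3.94 log2 CPM in TLX+siTLX, 0.93, 1.14 and 0.86 in TLX+siCTL, and 1.56, 1.81 and 1.81 in CTL+siCTL. The lowest level was thus in TLX+siCTL and the highest after the siRNA, well above CTL+siCTL, with no overlap between any 2 groups. In TLX+siTLX SPNS2 was 6.52-fold higher than in TLX+siCTL (log2 fold change 2.71 ± 0.14, SE) and 3.89-fold higher than in CTL+siCTL (1.96 ± 0.14). In TLX+siCTL it was 1.68-fold lower than in CTL+siCTL (-0.75 ± 0.14). Of the 12564 rows that averaged 1 log2 CPM or more (the abundant rows), 0% had a larger log2 fold change after the siRNA than SPNS2. As SPNS2 was picked for this rise, its rank is a description too. The rebuilt reads behind it were 142 in S6, the fewest, and 1330 in S9, the most.

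**Figure D1:**
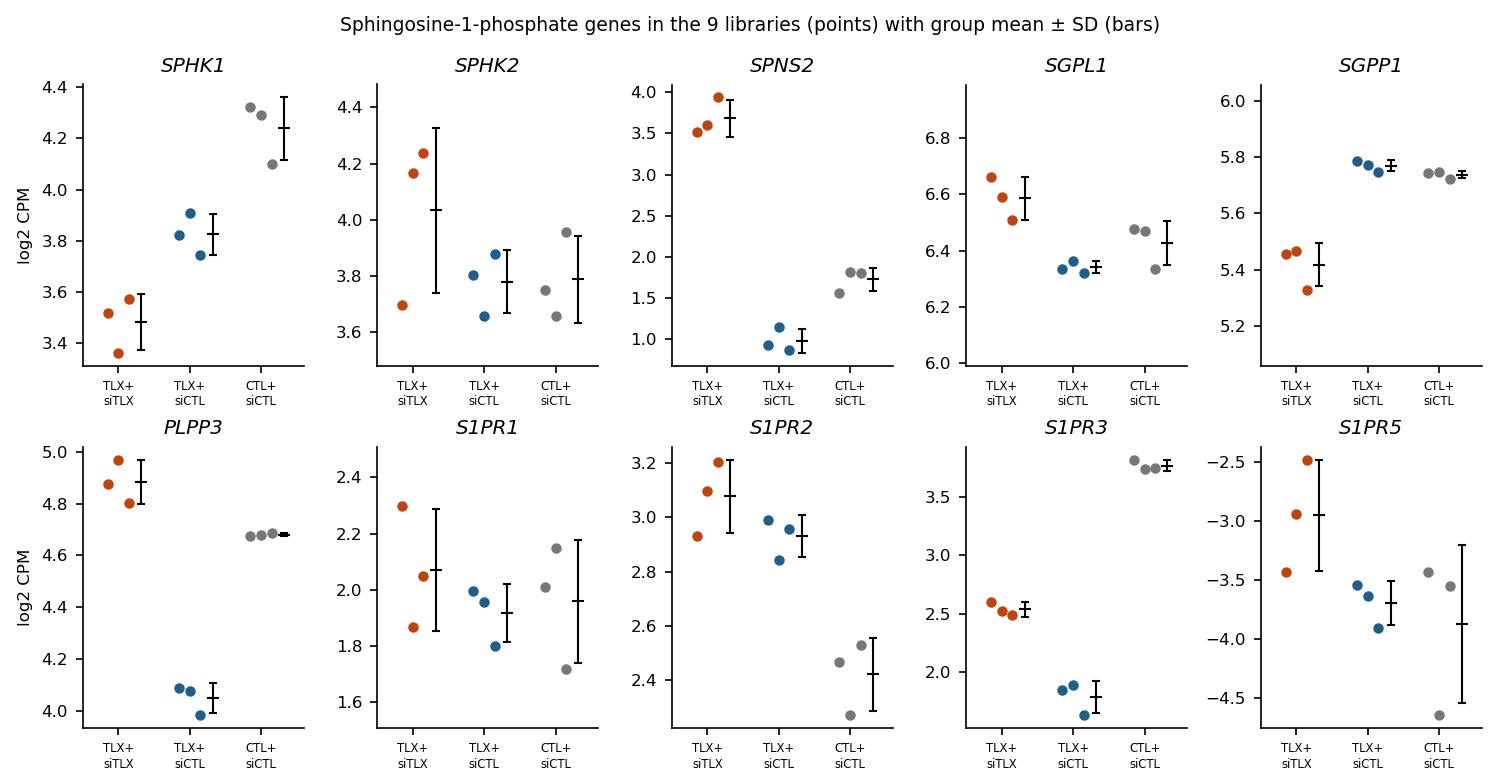
Log2 CPM (vertical axis, with its own range in each panel) of the 10 genes in the 3 libraries of each group (points), with the group mean ± SD (bars). SPNS2 lies above 3.5 in the 3 TLX+siTLX libraries and below 1.9 in all others, while SPHK1 is lowest in TLX+siTLX and S1PR3 is lowest in TLX+siCTL.

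SPNS2 lies between SPNS3 and MYBBP1A on chromosome 17. Of the 3 rows on either side, MYBBP1A, a nucleolar protein that binds MYB, shares 139 bases with SPNS2 at their ends on opposite strands. MYBBP1A averaged 7.01 log2 CPM in TLX+siTLX, 6.65 in TLX+siCTL and 6.50 in CTL+siCTL, and was higher after the siRNA by 0.37 ± 0.05 (adjusted p = 0.00116). It was highest in TLX+siTLX like SPNS2, but its TLX+siCTL mean was not below that of CTL+siCTL. UBE2G1, a ubiquitin-conjugating enzyme before SPNS2, fell by 0.14 ± 0.04 after the siRNA on the log2 scale (adjusted p = 0.0313), a call lost under 5 of 16 alternatives, among them without S4, S5, S8 or S9. In TLX+siCTL it was lower than in CTL+siCTL by a log2 fold change of -0.15 ± 0.04 (adjusted p = 0.0221), a call lost without S1, S2 or S6 and with no intensity trend. SPNS3, a relative of SPNS2, had a mean of -4.32 log2 CPM over the 9 libraries, and MFSD1P1, GGT6 and SMTNL2 also stood under -3. These 4 did not pass the test in any comparison.

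The genes most like SPNS2 over the 9 libraries, by Pearson's r among 12669 symbols that averaged 0 log2 CPM or more, were MYL9 (r = 0.994), GALNT2 (0.992), ACTG1 (0.992), MELTF (0.992) and ECM1 (0.992). All 5 had their highest mean in TLX+siTLX and their lowest in TLX+siCTL, an order that selection by a high r with SPNS2 brings with it. MYL9, a myosin light chain, averaged 7.21 log2 CPM in TLX+siTLX, 5.92 in TLX+siCTL and 6.19 in CTL+siCTL. ACTG1, cytoplasmic gamma-actin, averaged 11.5, 10.2 and 10.5 in that order. These correlations rest on 3 groups and are given as a description.

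SGPL1, the lyase that cleaves S1P irreversibly, rose slightly after the siRNA (ENSG00000166224, chr10:70815961-70881173). It had 6.66, 6.59 and 6.51 log2 CPM in TLX+siTLX, 6.34, 6.36 and 6.32 in TLX+siCTL, and 6.48, 6.47 and 6.34 in CTL+siCTL. TLX+siTLX lay above both other groups, which overlapped each other. The difference from TLX+siCTL was 1.19-fold (0.25 ± 0.05, adjusted p = 0.00826). That from CTL+siCTL was 1.12-fold (0.16 ± 0.05, adjusted p = 0.0411), and this call was lost under 10 of 16 alternatives (adjusted p from 0.0208 to 0.122); among libraries, leaving out any one of S1 to S8 lost it. The authors' deposited table gives a false discovery rate of 0.0530 for it. TLX+siCTL and CTL+siCTL differed by -0.09 ± 0.05 (adjusted p = 0.276).

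SGPP1, an S1P phosphatase of the endoplasmic reticulum, fell after the siRNA (ENSG00000126821, chr14:63684214-63728039). It had 5.46, 5.47 and 5.33 log2 CPM in TLX+siTLX, 5.79, 5.77 and 5.75 in TLX+siCTL, and 5.74, 5.75 and 5.72 in CTL+siCTL. The siRNA group lay below both others, whose values lay next to each other without overlapping. SGPP1 was 1.28-fold lower than in TLX+siCTL (-0.35 ± 0.04, adjusted p = 0.00042) and 1.25-fold lower than in CTL+siCTL (-0.32 ± 0.04, adjusted p = 0.00032). Between TLX+siCTL and CTL+siCTL the difference was 0.03 ± 0.04 (adjusted p = 0.650).

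PLPP3, a lipid phosphatase of the cell surface that acts on S1P and lysophosphatidic acid, had its groups in the same order as SPNS2 (ENSG00000162407, chr1:56494747-56645301). It had 4.88, 4.97 and 4.80 log2 CPM in TLX+siTLX, 4.09, 4.07 and 3.98 in TLX+siCTL, and 4.67, 4.68 and 4.69 in CTL+siCTL. No 2 groups overlapped, with TLX+siCTL lowest and TLX+siTLX just above CTL+siCTL. In TLX+siTLX PLPP3 was 1.78-fold higher than in TLX+siCTL (0.83 ± 0.05, adjusted p = 1.50e-05) and 1.15-fold higher than in CTL+siCTL (0.20 ± 0.05, adjusted p = 0.0145). In TLX+siCTL it was 1.55-fold lower than in CTL+siCTL (-0.63 ± 0.05, adjusted p = 2.77e-05). Of its 5286 exon bases 576 are shared on the same strand with AC119674.2, which averaged -2.45, -2.31 and -1.84 log2 CPM in TLX+siTLX, TLX+siCTL and CTL+siCTL.

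Of the receptors, S1PR3 had the largest differences (ENSG00000213694, chr9:88990863-89005010). S1PR3 couples to several G proteins. Its log2 CPM was 2.60, 2.52 and 2.48 in TLX+siTLX, 1.84, 1.88 and 1.63 in TLX+siCTL, and 3.82, 3.74 and 3.75 in CTL+siCTL. The groups were far apart and did not overlap, and TLX+siTLX lay nearer to TLX+siCTL than to CTL+siCTL. S1PR3 was 3.97-fold lower in TLX+siCTL than in CTL+siCTL (-1.99 ± 0.08, adjusted p = 1.04e-06), and 0.748% of the abundant rows had a lower log2 fold change there. In TLX+siTLX it was 1.68-fold higher than in TLX+siCTL (0.75 ± 0.08, adjusted p = 0.000273) and 2.36-fold lower than in CTL+siCTL (-1.24 ± 0.08, adjusted p = 5.45e-06).

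S1PR2, which is known for coupling to G12 and G13 proteins, was higher in both groups of TLX-overexpressing cells than in CTL+siCTL (ENSG00000267534, chr19:10221433-10231331). It had 2.93, 3.10 and 3.20 log2 CPM in TLX+siTLX, 2.99, 2.84 and 2.96 in TLX+siCTL, and 2.47, 2.27 and 2.53 in CTL+siCTL. All 6 libraries of TLX-overexpressing cells lay above the 3 control libraries, with or without the siRNA. S1PR2 was 1.57-fold higher in TLX+siTLX (0.65 ± 0.10, adjusted p = 0.000672) and 1.42-fold higher in TLX+siCTL (0.51 ± 0.10, adjusted p = 0.00362) than in CTL+siCTL. Between TLX+siTLX and TLX+siCTL the difference was 0.15 ± 0.10 (adjusted p = 0.366). Of its 3643 exon bases 83 are shared on the same strand with DNMT1, which was more abundant (7.43 log2 CPM in TLX+siTLX, 6.86 in TLX+siCTL, 6.28 in CTL+siCTL) and had its groups in the same order; its part in the result was not tested.

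S1PR1, the Gi-coupled receptor through which S1P guides lymphocytes and steadies the endothelium, passed no test. It had 2.30, 1.87 and 2.05 log2 CPM in TLX+siTLX, 2.00, 1.96 and 1.80 in TLX+siCTL, and 2.01, 2.15 and 1.72 in CTL+siCTL. The groups overlapped throughout. The log2 fold changes were 0.15 ± 0.15 after the siRNA (adjusted p = 0.528), 0.11 ± 0.15 for TLX+siTLX against CTL+siCTL (adjusted p = 0.616) and -0.04 ± 0.15 for TLX+siCTL against CTL+siCTL (adjusted p = 0.899).

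S1PR5, known from natural killer cells and oligodendrocytes, was close to the detection floor. Its log2 CPM was -3.43, -2.94 and -2.49 in TLX+siTLX, -3.55, -3.64 and -3.91 in TLX+siCTL, and -3.43, -4.65 and -3.55 in CTL+siCTL. This stands for 1.14 to 13.4 rebuilt reads a library, 26.9 in all in TLX+siTLX, 13.3 in TLX+siCTL and 11.1 in CTL+siCTL. At this depth no difference was detectable, with adjusted p = 0.234, 0.107 and 0.802 after the siRNA, for TLX+siTLX against CTL+siCTL and for TLX+siCTL against CTL+siCTL.

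Per length the receptors changed places between groups. At the shorter principal transcript S1PR3 stood at 1.38 ± 0.06 CPM per kb in TLX+siTLX, 0.821 ± 0.077 in TLX+siCTL and 3.25 ± 0.10 in CTL+siCTL (SD, n = 3). S1PR2 stood at 2.36 ± 0.22, 2.13 ± 0.11 and 1.50 ± 0.14 CPM per kb in these groups, and S1PR1 at 1.64 ± 0.25, 1.47 ± 0.10 and 1.52 ± 0.22. In TLX+siCTL the order from low to high was therefore S1PR3, S1PR1, S1PR2 with no overlap. In TLX+siTLX S1PR2 was again highest, and S1PR3 and S1PR1 overlapped. In CTL+siCTL S1PR3 was highest, and S1PR1 and S1PR2 overlapped. The lead of S1PR3 in CTL+siCTL depends on the length used: per kb of its longer principal transcript (8505 bases against 4206) it stood at 1.61 ± 0.05 CPM per kb there, where it overlapped S1PR2 (1.48 ± 0.13) and lay just above S1PR1 (1.35 ± 0.20). At that length it was the lowest of the 3 in TLX+siTLX (0.682 ± 0.029) and TLX+siCTL (0.406 ± 0.038).

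**Figure D2:**
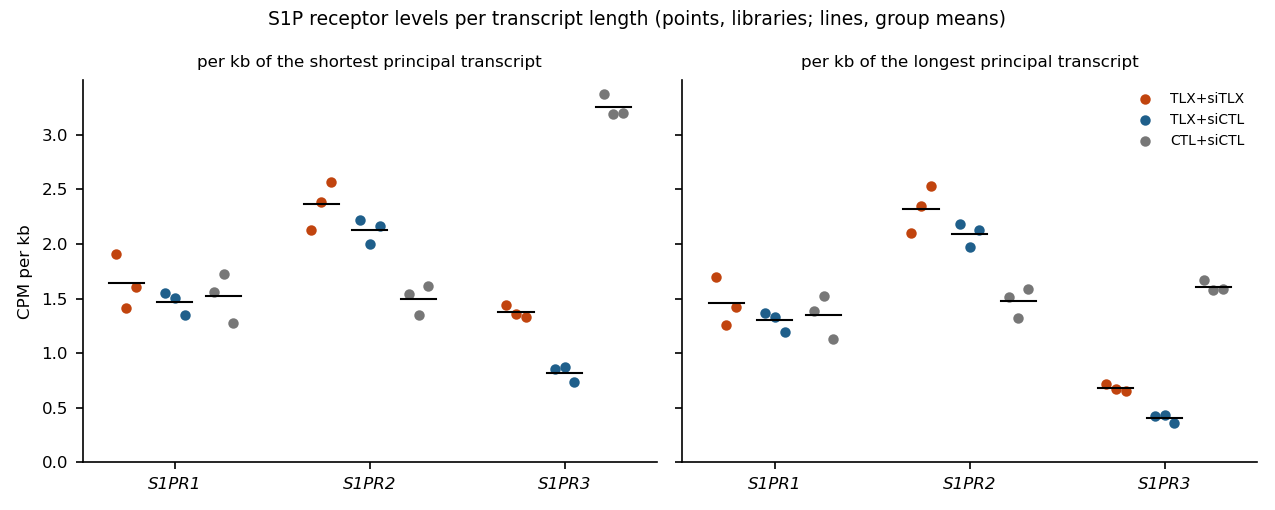
CPM per kb (vertical axis) of S1PR1, S1PR2 and S1PR3 in each library (points) with group means (lines), per kb of the shortest principal transcript (left) and of the longest (right). S1PR2 leads in both TLX-overexpressing groups at either length, while S1PR3 in CTL+siCTL stands at 3.25 CPM per kb on the left and 1.61 on the right.

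After the siRNA, 3 of the 9 genes other than SPNS2 rose (SGPL1, PLPP3 and S1PR3) and 2 fell (SPHK1 and SGPP1) relative to TLX+siCTL. Over all rows 23.7% were called in that comparison, and 45.8% of the abundant rows, where 9 of the 10 genes belong. Against CTL+siCTL, TLX+siTLX had 3 of the 9 higher (SGPL1, PLPP3 and S1PR2) and 3 lower (SPHK1, SGPP1 and S1PR3), where 34.6% of all rows and 63.6% of the abundant rows were called. In TLX+siCTL against CTL+siCTL 1 of the 9 rose (S1PR2) and 3 fell (SPHK1, PLPP3 and S1PR3), with 30.1% of all rows and 56.6% of the abundant ones called. These shares of members are near the abundant background, so the number of changed members is no result about the pathway.

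The 3 libraries of the groups did not overlap for 6 of the 9 genes other than SPNS2 after the siRNA, for 6 in TLX+siTLX against CTL+siCTL and for 5 in TLX+siCTL against CTL+siCTL. Among abundant rows the groups did not overlap for 58.3%, 71.1% and 71.6% in that order. The 6 after the siRNA include S1PR5, which rests on few reads and is not an abundant row. The share over all rows was not computed, and these counts are no result about the pathway either. The median log2 fold change of the 9 genes was 0.25, 0.16 and -0.04, where the abundant rows had medians of -0.00, 0.00 and 0.01. The 3 comparisons share libraries with each other. The authors' deposited table puts all 9 on the same side of 0.05 as the fit here in the siRNA comparison and in TLX+siCTL against CTL+siCTL, and 8 of the 9 in TLX+siTLX against CTL+siCTL, with SGPL1 the exception.

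**Figure D3:**
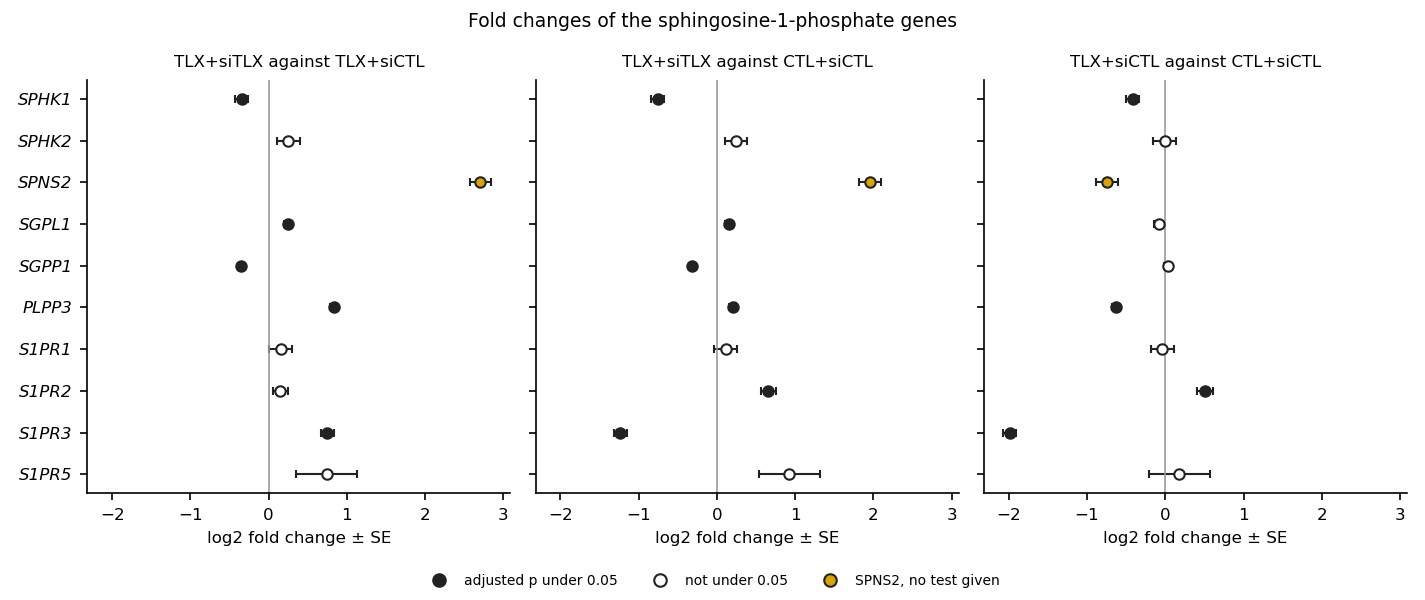
Log2 fold change ± SE (horizontal axis) of the 10 genes in the 3 comparisons, with filled points for limma adjusted p under 0.05, open points otherwise and gold for SPNS2, for which no test is given. PLPP3 and S1PR3 lie right of 0 after the siRNA and left of 0 in TLX+siCTL against CTL+siCTL, while SPHK1 lies left of 0 in all 3 panels.

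Further genes of the pathway were read from 7 lists with 73 genes, 65 of which were measured (an average of -3 log2 CPM or more). After the siRNA 11 of the 65 rose and 18 fell, where 20.3% of all measured genes rose and 17.7% fell. In TLX+siTLX against CTL+siCTL 16 rose and 25 fell (27.4% and 26.7% of all measured genes), and in TLX+siCTL against CTL+siCTL 18 rose and 25 fell (24.0% and 23.9%). Of the 65 genes 57 were abundant rows, among which calls in either direction were more frequent (45.8%, 63.6% and 56.6% in these comparisons). The median log2 fold change of all measured genes was 0.00, -0.01 and -0.00 in these comparisons. By the naming rule genes are named at an absolute log2 fold change of at least 1 with a call, and those named below that size were chosen after their values were seen, to spell out small counts.

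Of 7 measured genes for S1P carriers, other exporters and SPNS relatives, 1 rose and 0 fell after the siRNA, against 1 and 4 in TLX+siTLX and 0 and 4 in TLX+siCTL relative to CTL+siCTL. The list's median was 0.15, -0.49 and -0.48. ABCA1, a lipid exporter also tied to S1P release, had 5.70, 5.92 and 6.81 log2 CPM in TLX+siTLX, 5.18, 4.92 and 5.83 in TLX+siCTL, and 7.64, 7.58 and 7.61 in CTL+siCTL. It was lower than in CTL+siCTL in TLX+siTLX (-1.46 ± 0.30, adjusted p = 0.00425) and in TLX+siCTL (-2.30 ± 0.30, adjusted p = 0.000383), and the TLX groups overlapped each other. ABCG2, a drug and lipid exporter, fell by 1.42 ± 0.12 in TLX+siCTL relative to CTL+siCTL (adjusted p = 3.48e-05) and was the 1 gene that rose after the siRNA (0.57 ± 0.12). MFSD2A and SPNS1 were lower in both TLX groups than in CTL+siCTL, and ABCC1 was higher in TLX+siTLX than in CTL+siCTL by 0.15 ± 0.05.

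Among other S1P phosphatases SGPP2 and PLPP1 rose after the siRNA and were lower in TLX+siCTL than in CTL+siCTL. SGPP2, a second S1P phosphatase of the endoplasmic reticulum, had 3.99, 4.04 and 4.00 log2 CPM in TLX+siTLX, 3.39, 3.35 and 3.03 in TLX+siCTL, and 5.01, 4.97 and 5.13 in CTL+siCTL. It rose after the siRNA (0.75 ± 0.09, adjusted p = 0.000469) and was below CTL+siCTL in TLX+siTLX (-1.03 ± 0.09, adjusted p = 2.91e-05), from which TLX+siCTL differed by -1.78 ± 0.09 (adjusted p = 2.62e-06). PLPP1, a surface lipid phosphatase like PLPP3, differed by 0.49 ± 0.05 after the siRNA and by -0.55 ± 0.05 in TLX+siCTL against CTL+siCTL. Of the 4 measured genes of this list 2 rose and 0 fell after the siRNA, 1 rose (PLPP2) and 2 fell in TLX+siTLX against CTL+siCTL, and 0 rose and 3 fell in TLX+siCTL against CTL+siCTL. ALDH3A2, the dehydrogenase that oxidises the aldehyde made by the lyase, was lower in both TLX groups than in CTL+siCTL. S1PR4, the remaining receptor, was under the minimum of -3.

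Ceramidases, which free the sphingosine that the kinases use, fell or did not pass the test. Of 4 measured, 0 rose and 2 fell after the siRNA (ASAH1 and ACER3), 0 and 3 in TLX+siTLX against CTL+siCTL (ASAH1, ACER2 and ACER3), and 0 and 2 in TLX+siCTL against CTL+siCTL (ASAH1 and ACER2). The list's median was -0.39, -0.55 and -0.17. ASAH1, the acid ceramidase of the lysosome, averaged 6.94 ± 0.09 log2 CPM in TLX+siTLX, 7.38 ± 0.07 in TLX+siCTL and 7.65 ± 0.05 in CTL+siCTL (SD, n = 3). ACER2, the Golgi ceramidase, was lower in TLX+siTLX than in CTL+siCTL by a log2 fold change of -1.18 ± 0.17 (adjusted p = 0.00051). SPHK1 and ASAH1 thus had their groups in the same order. By group mean so did ACER2 and ACER3, and SPTLC2 and GNAQ of other lists, so the order is not particular to this pair.

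The serine palmitoyltransferase that begins ceramide synthesis showed opposite changes of SPTLC3 and SPTLC2, alternative catalytic subunits, in TLX+siTLX against CTL+siCTL. SPTLC3 had 5.48, 5.65 and 5.32 log2 CPM in TLX+siTLX, 4.79, 4.86 and 4.90 in TLX+siCTL, and 2.86, 2.99 and 3.15 in CTL+siCTL. It was higher than in CTL+siCTL by 2.48 ± 0.10 in TLX+siTLX (adjusted p = 3.07e-07) and by 1.85 ± 0.10 in TLX+siCTL (adjusted p = 2.65e-06). SPTLC2 averaged 5.80 ± 0.21 log2 CPM in TLX+siTLX, 6.28 ± 0.11 in TLX+siCTL and 6.92 ± 0.09 in CTL+siCTL (SD, n = 3), and was lower in TLX+siTLX than in CTL+siCTL (-1.12 ± 0.10, adjusted p = 3.98e-05). SPTSSB, a small subunit, was lower in TLX+siCTL than in CTL+siCTL (-2.28 ± 0.58, adjusted p = 0.0156). It had -0.11, -0.65 and -2.59 log2 CPM in TLX+siCTL, against 0.69, 1.37 and 1.43 in CTL+siCTL, with S6 far below S4 and S5. Without S6 the difference was -1.55 (adjusted p = 0.0153), and with log2(CPM + 1) values it was -1.08. The call was lost without S2, without S3 and in a fit of the 6 libraries compared (adjusted p from 0.00405 to 0.0748 over the alternatives). Of the 15 measured genes of ceramide synthesis 1 rose and 7 fell after the siRNA, 3 and 7 in TLX+siTLX against CTL+siCTL, and 6 and 6 in TLX+siCTL against CTL+siCTL, with list medians of -0.23, -0.36 and 0.04.

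Among 13 genes of other uses and sources of ceramide 3 rose and 2 fell after the siRNA, 6 and 2 in TLX+siTLX against CTL+siCTL, and 5 and 2 in TLX+siCTL against CTL+siCTL (medians 0.05, 0.18 and 0.10). SMPD1, the acid sphingomyelinase, was higher in TLX+siTLX than in CTL+siCTL by 1.03 ± 0.04 (adjusted p = 3.07e-07). Of 17 genes for receptor coupling and desensitisation 2 rose and 7 fell after the siRNA, 5 and 5 in TLX+siTLX against CTL+siCTL, and 7 and 5 in TLX+siCTL against CTL+siCTL (medians -0.11, 0.08 and 0.12). None of the 17 reached an absolute log2 fold change of 1. The 2 that rose after the siRNA were GNAI1 (0.26 ± 0.05) and GNAI2 (0.42 ± 0.05), alpha subunits of the Gi proteins. The third Gi alpha subunit, GNAI3, differed by 0.09 ± 0.04 (adjusted p = 0.115).

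The receptors of lysophosphatidic acid, a related lipid messenger, included members lower in both TLX groups. LPAR1 had 5.95, 6.02 and 5.83 log2 CPM in TLX+siTLX, 5.74, 5.75 and 5.51 in TLX+siCTL, and 7.06, 7.04 and 7.01 in CTL+siCTL. It was lower than in CTL+siCTL in TLX+siTLX (-1.10 ± 0.07, adjusted p = 4.24e-06) and in TLX+siCTL (-1.37 ± 0.07, adjusted p = 2.65e-06). LPAR5 was lower too, with -1.73 ± 0.11 in TLX+siTLX (adjusted p = 4.23e-06) and -1.84 ± 0.11 in TLX+siCTL (adjusted p = 5.16e-06). Of the 5 measured genes 2 rose and 0 fell after the siRNA, 0 and 2 in TLX+siTLX against CTL+siCTL, and 0 and 3 in TLX+siCTL against CTL+siCTL (medians 0.27, -0.15 and -0.47). The 2 that rose were LPAR1 (0.27 ± 0.07, adjusted p = 0.0249, a call lost under 8 of 16 alternatives, among them without S1, S2, S3, S6, S7 or S8) and LPAR2 (0.48 ± 0.08).

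**Figure D4:**
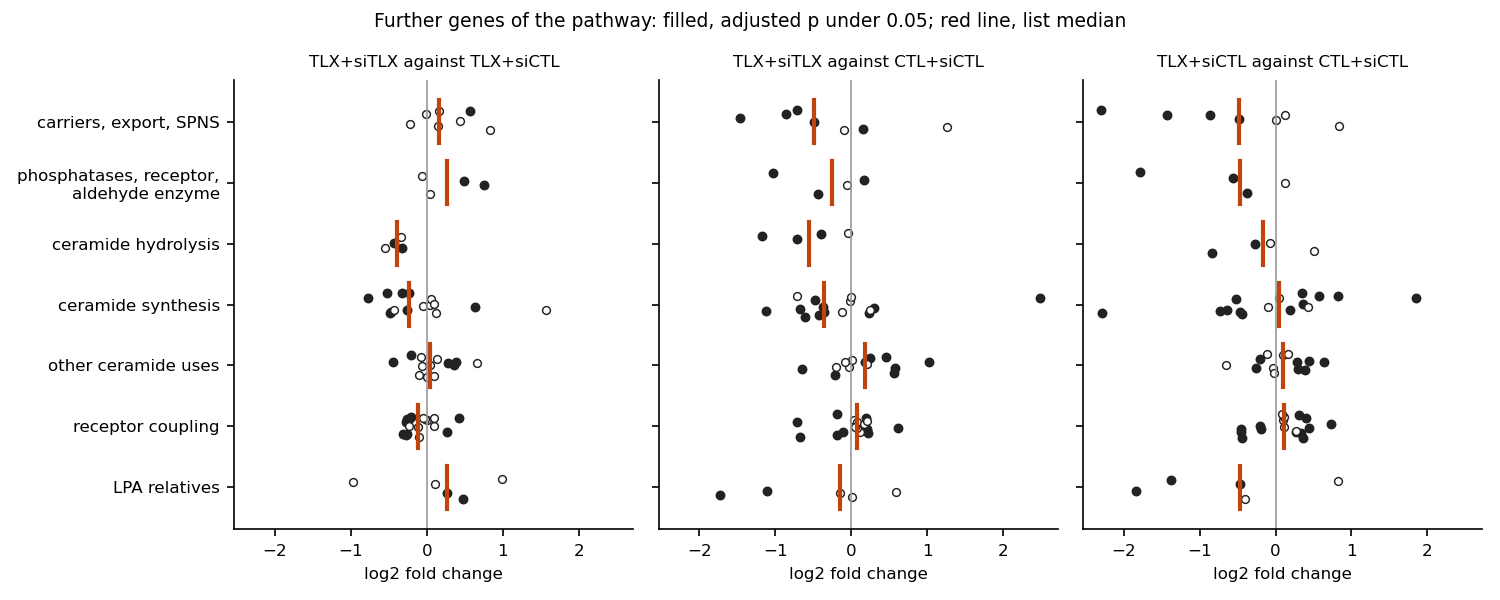
Log2 fold change (horizontal axis) of the 65 measured genes in 7 lists, 1 point a gene, filled for limma adjusted p under 0.05, with the list's median as a red line. Ceramide hydrolysis has its median left of 0 in all 3 panels (-0.39, -0.55 and -0.17), while the carriers and the other phosphatases lie right of 0 after the siRNA (0.15 and 0.27).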

How the data were processed

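RNA of MDA-MB-231 cells was sequenced in 9 libraries. Per the labels' protocols a stranded mRNA kit was used. The authors deposited log2 CPM values (read counts scaled to library size, on a log2 scale) for 27548 rows, and a table of signed fold changes with a p-value and false discovery rate per comparison. Kallisto 0.44.0, limma, edgeR and GRCh38 are named in the submitters' processing notes, with no role or order. The signed fold in the authors' deposited table is a score in which a fall is minus the inverse ratio, and of its p-value columns only the false discovery rates are quoted.

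Every library had a floor of -5.33, the log2 value that a count of 0 gives with a prior count of 2. From it and the steps of low values effective sizes of 73.8 to 91.8 M reads were rebuilt, but only 37.6% to 39.8% of low values lay within 0.01 of a whole read, so rebuilt reads are estimates. Fold changes of low genes are understated, and CPM was taken as 2 to the power of the deposited value. The deposited log2 values were fitted with limma 3.58.1 (R 4.3.3) in 1 model of the 9 libraries and 3 group means, with an intensity trend in the moderation, two-sided tests and Benjamini-Hochberg adjustment over all rows. The fit was tested on simulated data. With 3 libraries against 3 an exact permutation test cannot go below 0.1 and was not used.

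Column headers carry a group and a running number (S1 to S9). Positions and principal transcript lengths come from GENCODE 29 (GRCh38), promoter sequences from RefSeq (GRCh38.p14). Rows that averaged 1 log2 CPM or more are called abundant (12564 rows), and genes, 1 row per symbol, at -3 or more measured (15809 rows). Named are the 10 genes, list genes with an absolute log2 fold change of at least 1 and a call (at most 3 per list and comparison), 3 rows on each side of SPNS2 and the 5 genes most like it. Members and lists were chosen with earlier results of these data known. Alternatives were log2(CPM + 1), filters at 1 and -3, equal library medians, quantile normalization, no intensity trend, the 6 libraries compared and each library left out.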

Additional observations from a re-analysis of the deposited data

How the results depend on the processing

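No paired analysis was possible because the columns carry none of the replicate numbers of the labels. Under the 16 alternatives the numbers of called rows and of called members stayed within 1.5 times. With each library left out, 5219 to 6241 rows were called after the siRNA (6518 with all libraries), 8312 to 9209 in TLX+siTLX against CTL+siCTL (9544) and 7033 to 8664 in TLX+siCTL against CTL+siCTL (8304). Called members other than SPNS2, a count without SPNS2 in every comparison that was added after seeing the data, were 4 to 6 of the 9 after the siRNA, 5 to 6 in TLX+siTLX against CTL+siCTL and 4 in TLX+siCTL against CTL+siCTL. Of 1041 values of single fold changes, SPNS2 left out, 980 kept direction and side of the threshold, 38 lost the call, 12 gained one and 11 changed sign. None of these 11 was called. In TLX+siCTL against CTL+siCTL SPHK2 was at 0.0077 with equal medians, 0.043 with quantile normalization and -0.074 to 0.076 with a library left out, S1PR1 at 0.016 with quantile normalization and -0.16 to 0.053 with a library left out, and S1PR5 at -0.21 to 0.40 with a library left out. In TLX+siTLX against CTL+siCTL S1PR1 was at -0.0076 to 0.22 with a library left out, and after the siRNA LPAR5 was at -0.047 with quantile normalization. SPHK1, SPHK2, SGPL1, SPTSSB, LPAR1, UBE2G1 and NR2E1 have their changed calls beside their values. The call of SPTLC2 after the siRNA (-0.49) was lost without S4, without S5 and in the 6-library fit; ABCA1 (0.83) and SPTSSB (1.57) gained a call after the siRNA under filters. MYBBP1A gained one in TLX+siCTL against CTL+siCTL (0.15) under 7 alternatives. The causes were not tested. Depth limits S1PR5 and NR2E1, which rest on few reads; for S1PR5 the filters at 1 and -3 gave no value, nor did the filter at 1 for NR2E1, ACER2 and SPTSSB.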
